A study of Mus musculus with 2 samples.

Results

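The genes described here are the interleukins and their receptors in mouse gastrocnemius, the large calf muscle, with and without its nerve. Members were the genes whose name on the array is Il followed by a digit. They came to 84 of the 21974 gene symbols, read by 126 of the 41174 probes outside the control classes. By role, 38 were counted as ligands, 42 were receptor chains, 3 were counted as secreted antagonists or binding proteins (Il1rn, Il18bp and Il22ra2), and 1 was an enzyme (Il4i1, named for its induction by IL-4). The count of ligands includes Il1f5, which is an antagonist of the IL-36 receptor. Both groups were male C57BL/6 mice aged 9 weeks when the muscle was taken. The denervated mice had lost the nerve supply at 7 weeks of age, 14 days earlier. The control is called sham in its title and plain control in its source, so whether it was operated on is unclear. RNA of 6 mice was pooled per group and each pool went onto 1 one-colour array, so there is no replicate, no test and no p-value, and every difference describes these 2 pools.

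Interleukins are small secreted proteins through which immune, stromal and tissue cells signal to each other. Most act through receptors that join a ligand-specific chain to a shared chain, such as the common gamma chain (Il2rg), gp130 (Il6st) or the IL-1 receptor accessory protein (Il1rap). Class I and II receptors signal through Janus kinases and STAT proteins, the IL-1 family through Myd88 and Irak kinases, and the IL-17 family through the adaptor Traf3ip2. In skeletal muscle, IL-6 and IL-15 are best known as cytokines made by the fibre itself, and IL-33 and IL-4 as signals between stromal cells, regulatory T cells and macrophages during repair.

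A gene counted as measured when a probe cleared the scanner software's background limit on each array without saturating, and it took the value of its brightest probe. A gene over that limit on an array is called detected there. Signals are printed as the scanner software gives them, before scaling. The denervated array was the brighter, with a 75th percentile of 1063 against 788, and the log2 difference (denervated minus control) was taken after each array was divided by its own 75th percentile. A gene with equal signals on both arrays therefore has a negative difference. The value after ± is the technical spot error carried through both arrays, with a median of 0.21 over the measured members, and it holds none of the spread between mice. Over all 15652 measured genes the median difference was -0.11. When the arrays were instead set equal on their spike-in control spots, all genes moved up by 0.40, so a difference between -0.40 and 0 has no settled sign.

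The bulk tissue was muscle by its markers. All 5 fibre markers (Acta1, Ckm, Myh4, Tnnt3 and Mb) had signals of at least 205639 on both arrays, with differences from -0.72 to -0.21. All 9 markers of macrophages and myeloid cells had a higher level after denervation, 8 of them by at least 2-fold, where 6.92% of all genes were. Cd68 (3.53), Fcgr1 (2.21) and Itgam (1.94) had the largest differences, Lyz2 gave 1.48 and Cd163 1.14, and the lowest was 0.84. Their summed scaled signal was 18.7 in control and 53.2 in denervated muscle. Of the T cell markers, 5 of 8 were measured and none passed 2-fold (median -0.39, or 0.0082 on the spike-in scale). Cd3e gave -0.55, Cd8b1 0.49 and Cd3g -0.46, while Cd3d and Lck were detected on neither array. The 6 mast cell markers had a median of -0.51, with Kit at -1.28, Fcer1a at -1.12, Tpsb2 at -0.60, Mcpt4 at -0.43 and Cma1 at -0.23. In such bulk RNA, more cells of a type and more RNA per cell cannot be told apart, and the part of these cells in the results that follow was not tested.

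The promoter sequences of members past 2-fold are shown for the genes whose window overlapped no other protein-coding gene, with Il17rc added as the neighbour of Il17re on chromosome 6. RefSeq entries of assembly GRCm38.p6 were found for 68 of the 84 members and for 5 of the 7 past 2-fold. Each window holds the bases just upstream of the annotated gene, 250 of them, or 178 for Il17re, and reads 5′ to 3′ on the strand of the gene. Il33 lies on the plus strand at chr19:29924863-29925112, inside the non-coding RNA gene Gm41832. Il18bp lies on the minus strand at chr7:102018233-102018482. Il17re lies on the plus strand at chr6:113458521-113458698, and Il17rc on the plus strand at chr6:113471205-113471454. The windows of Il11 and Il4i1 overlap the genes Tmem190 and Il4i1b. Capitals mark motif matches.
Il33: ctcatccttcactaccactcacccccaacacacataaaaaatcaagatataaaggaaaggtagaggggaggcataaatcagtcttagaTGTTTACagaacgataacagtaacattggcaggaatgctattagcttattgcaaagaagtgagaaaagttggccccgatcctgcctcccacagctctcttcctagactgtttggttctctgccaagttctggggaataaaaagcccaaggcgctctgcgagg
Il18bp: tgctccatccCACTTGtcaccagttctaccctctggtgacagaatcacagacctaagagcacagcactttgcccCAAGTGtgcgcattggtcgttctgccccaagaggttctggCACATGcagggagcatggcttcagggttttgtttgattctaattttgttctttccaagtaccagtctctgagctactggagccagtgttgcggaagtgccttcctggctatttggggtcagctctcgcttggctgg
Il17re: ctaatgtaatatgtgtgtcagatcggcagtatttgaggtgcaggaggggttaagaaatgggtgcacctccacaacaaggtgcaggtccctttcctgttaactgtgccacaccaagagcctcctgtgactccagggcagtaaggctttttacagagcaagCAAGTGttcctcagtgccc
Il17rc: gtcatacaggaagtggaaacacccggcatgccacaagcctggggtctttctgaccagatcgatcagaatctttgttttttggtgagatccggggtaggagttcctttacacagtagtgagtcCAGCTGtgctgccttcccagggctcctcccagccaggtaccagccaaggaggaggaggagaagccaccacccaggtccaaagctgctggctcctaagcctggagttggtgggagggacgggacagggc
The capitals in the Il33 window are 1 match to the FoxO motif GTAAACA, read on the opposite strand. This motif is in 3.17% of all 32851 promoter windows of 250 bases. The capitals in the other windows are matches to the E-box CANNTG, with 3 in Il18bp, 1 in Il17re and 1 in Il17rc. An E-box was in 66.2% of all windows of 250 bases and in 55.1% of those of 178 bases. AP-1 (TGANTCA), STAT (TTCNNNGAA), NF-kB and MEF2 had no match in these 4 windows, which says only that those letters are not there. Both strands were searched, and no match overlapped another.

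Fewer interleukin genes than other genes were measurable in this tissue. Of the 84 members 39 (46.4%) were measured on both arrays, against 71.2% of all genes. Receptor chains were measured more often (24 of 42, 57.1%) than ligands (13 of 38, 34.2%). Well above background in control muscle only were Il10 (16.3 in control and 11.5 in denervated muscle), Il12rb2 (28.0 and 20.2) and Il2ra (25.3 and 15.9). Il10 is a cytokine that dampens inflammation, Il2ra is the alpha chain of the IL-2 receptor and Il12rb2 a signalling chain of the IL-12 receptor. Each was set against the lowest signal that counts as above background, or the dim probe's own signal where that is higher. For Il12rb2 the dim signal itself was the higher. The control pool was there 1.87-fold higher (log2 -0.90 ± 0.40), an estimate and not a lower limit. For Il2ra the control pool was at least 1.90-fold higher (log2 -0.93). The spike-in shift of 0.40 would make both smaller without turning the sign. For Il10 the bound was 1.23-fold, a log2 difference of -0.30. That is smaller in size than the spike-in shift of 0.40, so the sign for Il10 is not settled. Well above background in denervated muscle only were Il12rb1 (13.1 in control and 52.6 in denervated muscle) and Il1f9 (2.98 and 38.0). Il12rb1, the receptor chain shared by IL-12 and IL-23, was at least 2.69-fold higher there, and Il1f9, an IL-36 cytokine, at least 1.94-fold. Of the 84 members, 3 were thus detected in the control pool only and 2 in the denervated pool only. Of all genes, 4.52% and 1.90% were, so these counts do not set the members apart.

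The other 40 genes were well above background on neither array. They were 23 ligands, 15 receptor chains and 2 antagonists. Among them were most of the ligands that lymphocytes are known to make (Il3, Il4, Il5, Il9, Il17a, Il17f, Il21, Il22 and Il25), with Il7, Il31 and the p40 and p19 subunits Il12b and Il23a. The IL-1 family genes Il1a, Il1b, Il1f6 and Il1f10 and the receptor antagonist Il1rn were in this class. So was Il1f5, the antagonist counted as a ligand, which is therefore not among the measured ligands. The IL-10 family ligands Il19, Il20 and Il28 (the array's name for Ifnl3) and the IL-17 family ligands Il17b and Il17c were there too. The receptor chains were Il5ra, Il7r, Il9r, Il13ra2, Il17rb, Il18r1, Il18rap, Il1rapl1, Il1rapl2, Il20ra, Il23r, Il27ra and Il28ra (Ifnlr1), with Il8ra and Il8rb, older names of the chemokine receptors Cxcr1 and Cxcr2. The decoy receptor gene Il22ra2 completes the list. At this signal these genes were given no difference, and the repeated spots of Il1b are described below.

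**Figure D1:**
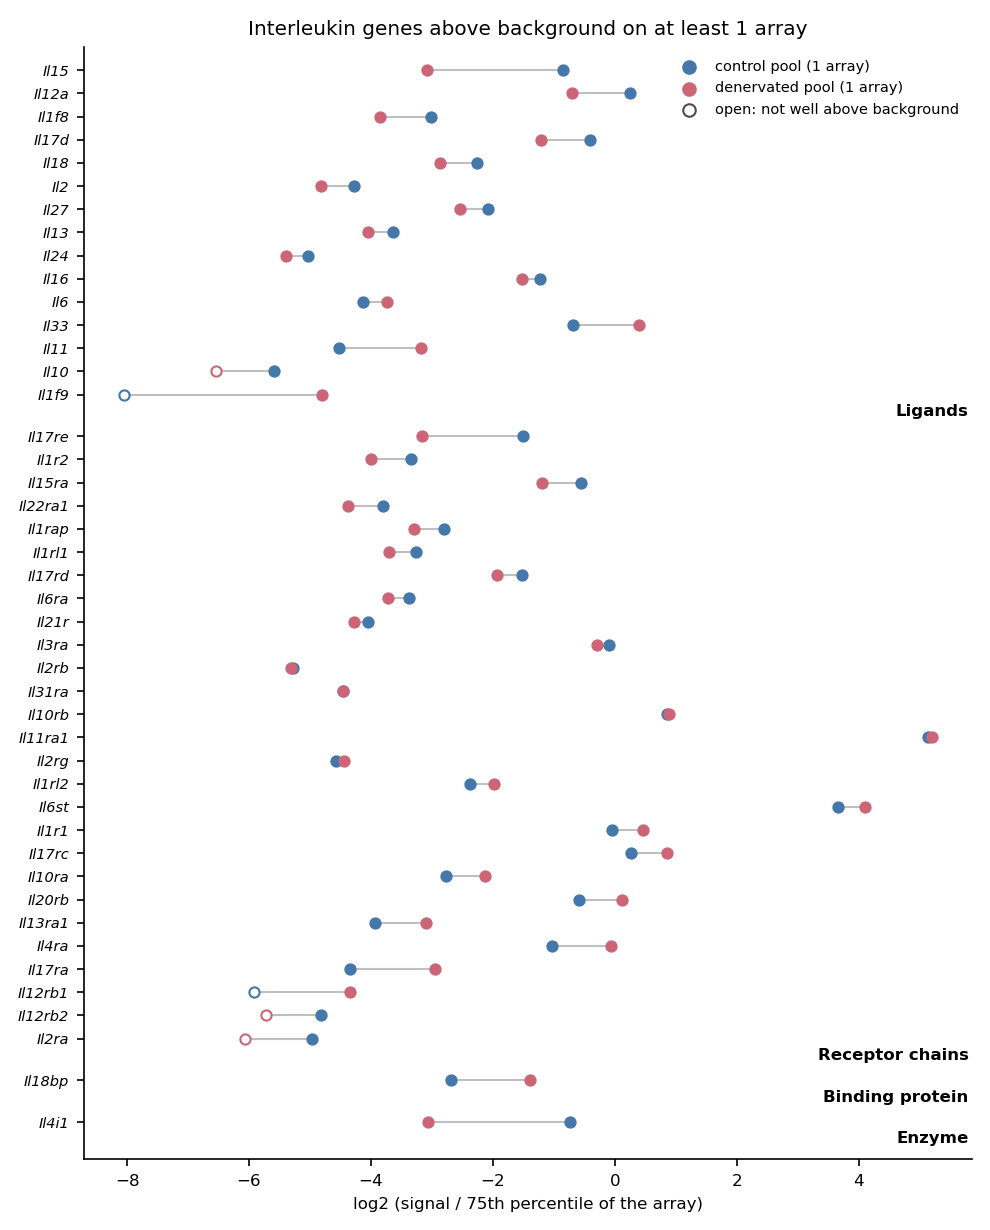
Level of each interleukin gene above background on at least 1 array, as log2 of the signal over the array's 75th percentile (horizontal axis), in the control pool (blue) and the denervated pool (red), 1 array each; open circles were not well above background. Only the 2 points of a row can be set against each other, and the widest gaps between filled points are those of Il4i1, Il15 and Il17re, where the denervated pool is lower.

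Among the 39 measured members, 4 were higher by at least 2-fold after denervation, where 6.92% of all genes were, and 3 were at least 2-fold lower, where 8.59% of all genes were. Those shares of the members were 10.3% and 7.69%, close to the background, so passing 2-fold does not set these genes apart. The higher genes were the receptor chain Il17ra, the ligands Il11 and Il33 and the binding protein Il18bp. The lower genes were the enzyme Il4i1, the ligand Il15 and the receptor chain Il17re. With the arrays set equal on the spike-ins 8 were higher and 3 lower, where 14.4% and 4.15% of all genes were. With normexp background correction (offset 50), which adds a constant that draws dim signals together, none of the 4 passed 2-fold: Il33 gave 0.97, Il18bp 0.94, Il11 0.45 and Il17ra 0.41, while the 3 lower genes still passed. The median over the members was -0.22, with 16 above 0 (41.0%, against 42.7% of all genes).

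Ligands and receptor chains differed in their middle value. The 13 ligands had a median of -0.45, with 3 above 0, and their differences ran from -2.22 (Il15) to 1.35 (Il11). The 24 receptor chains had a median of 0.01, with 12 above 0, and ran from -1.66 (Il17re) to 1.40 (Il17ra). The receptor median was thus 0.46 above the ligand median, while the ranges overlap almost entirely. On the spike-in scale the medians were -0.055 and 0.41 at the same distance from each other, so whether ligands as a class lay below 0 is not settled. When dim probes were kept as well the distance was 0.15, and with normexp it was 0.29. For 7 of the 39 measured members, all of them receptor chains, the difference was smaller than its technical error.

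**Figure D2:**
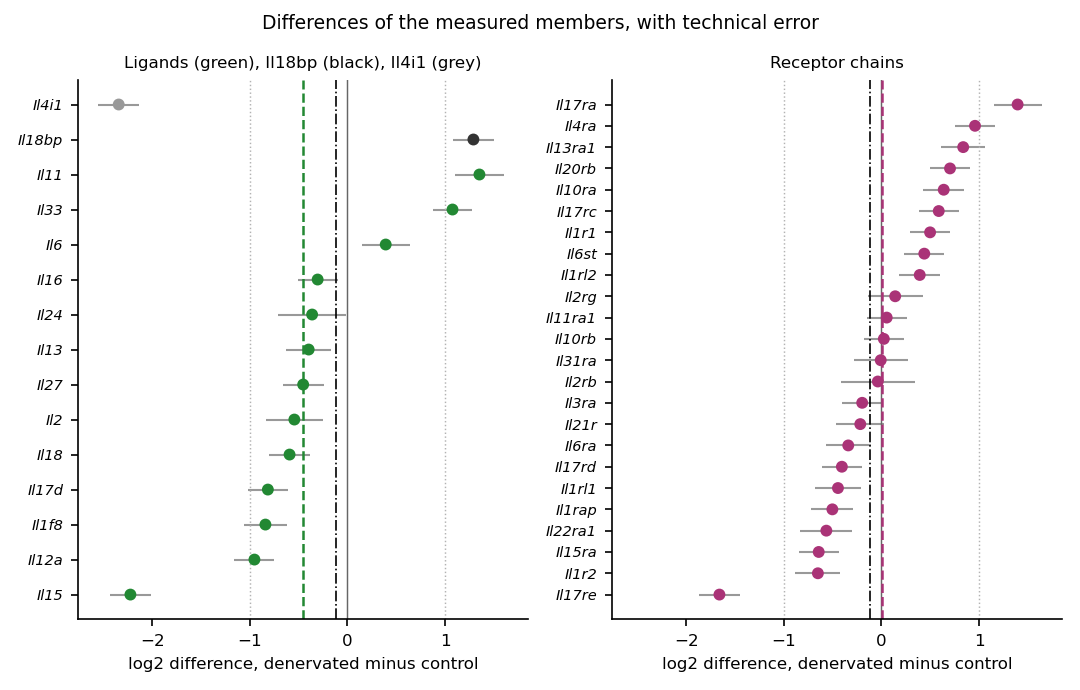
Log2 difference, denervated minus control, of the 13 ligands, Il18bp and Il4i1 (left) and of the 24 receptor chains (right), with the technical error as a bar. Dashed coloured lines are the ligand median (-0.45) and the receptor median (0.01), the dash-dotted line is the median of all measured genes (-0.11), and dotted lines mark 2-fold; 10 of 13 ligands lie left of 0.

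In the gp130 family, whose members mostly share the Il6st chain, 6 of 7 genes were measured. Il11, a stromal cytokine tied to fibrosis and platelet formation, gave a signal of 34.2 in control and 118 in denervated muscle. It was 2.55-fold higher there (1.35 ± 0.25; transcript NM_008350, probe at chr7:4376332-4376391, mm8). Its own receptor chain Il11ra1 hardly moved, with signals of 27791 and 38946 and a difference of 0.05 ± 0.20 (0.02 by its other probe). Near-identical copies of Il11ra1 exist in the mouse genome, so its probes may read more than that gene. Il6 gave 45.2 in control and 80.0 in denervated muscle, a difference of 0.39 ± 0.25. Its binding chain Il6ra gave 75.6 and 80.6, a difference of -0.34 ± 0.23, and another probe of it gave -1.11. The shared signalling chain Il6st gave 9951 and 18208, or 0.44 ± 0.20. Il6 turned to -0.10 with normexp background correction, and on the spike-in scale Il11ra1 gave 0.45 and Il6ra 0.06. Il31ra, a chain of the IL-31 receptor that pairs with Osmr in place of Il6st, gave -0.01 ± 0.28, or 0.39 on the spike-in scale.

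The common gamma chain family held the member with the lowest ligand value. Il15, which sustains natural killer and memory T cells and is known to be abundant in muscle, gave 436 in control and 126 in denervated muscle. It was 4.67-fold lower there (-2.22 ± 0.21; NM_008357, probe at chr8:85230251-85230310, mm8). Its other measured probe gave 124 and 93.9, a difference of -0.83 ± 0.22, so the direction is shared by both probes and the size is not. Il15ra, the chain that presents IL-15 to neighbouring cells, was lower too, with 537 and 465 (-0.64 ± 0.21, and -0.85 by another probe). Both sides of the IL-15 pair were therefore lower in the denervated pool. The signalling chains that IL-15 borrows lay within their technical error of 0: Il2rb gave 20.3 and 26.7 (-0.04 ± 0.38), and Il2rg gave 33.0 and 49.1 (0.14 ± 0.28). With normexp they gave -0.38 and -0.24. Il2, the T cell growth factor, gave 40.7 and 37.6 (-0.54 ± 0.29), and Il21r, the IL-21 receptor, gave 47.4 and 55.1 (-0.22 ± 0.25).

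The chains for IL-4 and IL-13 were higher while the ligand measured was not. Il4ra, which binds IL-4 and serves both cytokines, gave 386 in control and 1013 in denervated muscle. Its difference of 0.96 ± 0.20 lies just under 2-fold, and on the spike-in scale it was 1.36. Il13ra1, its partner on non-blood cells, gave 51.6 and 124 (0.84 ± 0.23), but its other probe gave 0.14. Il13 itself gave 63.0 and 64.5 (-0.40 ± 0.23, or 0.0015 on the spike-in scale), and Il4 was detected on neither array. The enzyme Il4i1, an amino acid oxidase induced by IL-4, had the lowest difference of the measured members. Its signal was 475 in control and 126 in denervated muscle, 5.07-fold lower (-2.34 ± 0.21; NM_010215, probe at chr7:44708482-44708541, mm8). RefSeq places a related gene model, Il4i1b, at the same locus, so the probe may read either.

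The IL-1 family had 9 of 20 genes measured, with a median of -0.44. Il33, an alarmin held in the nuclei of stromal cells, gave 489 in control and 1392 in denervated muscle. It was 2.11-fold higher there (1.08 ± 0.20; NM_133775, probe at chr19:30026497-30026556, mm8). Its receptor chain Il1rl1, also called ST2, gave 82.0 and 81.3 (-0.44 ± 0.23). A probe for another Il1rl1 transcript (NM_010743) was detected in denervated muscle only, at 2.91 and 31.7, at least 1.62-fold higher. The accessory chain Il1rap, which Il1rl1 needs for signalling, gave 113 and 108 (-0.50 ± 0.22, and -0.49 by another probe). A further Il1rap probe was detected in control muscle only, at least 2.32-fold higher there. Il33 was thus higher without a higher value of the measured Il1rl1 or Il1rap probes, and on the spike-in scale Il1rl1 lay within its technical error of 0.

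The IL-18 branch of the family had its binding protein higher. Il18bp, a secreted protein that traps IL-18, gave 123 in control and 405 in denervated muscle. It was 2.44-fold higher there (1.29 ± 0.21; NM_010531, probe at chr7:101889407-101889466, mm8), and 1.18 by its other probe. Il18 gave 164 and 146 (-0.59 ± 0.21). On the spike-in scale it gave -0.19, which is within its technical error. Both IL-18 receptor chains were detected on neither array. Of the IL-1 receptor chains, the signalling receptor Il1r1 gave 766 and 1460 (0.50 ± 0.20). The decoy receptor Il1r2 gave 77.2 and 66.4 (-0.65 ± 0.23), and its other probe was detected in control muscle only, at least 2.56-fold higher there. The IL-36 receptor Il1rl2 gave 152 and 269 (0.39 ± 0.21) and its ligand Il1f8, now called IL-36 beta, gave 97.3 and 73.3 (-0.84 ± 0.22). On chromosome 1 the genes Il1r2, Il1r1, Il1rl2 and Il1rl1 are neighbours, and their differences had both signs.

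In the IL-17 family, 5 of 11 genes were measured, 4 of them receptor chains with values on both sides of 0. Il17ra, the chain shared by all IL-17 receptors, gave 38.8 in control and 138 in denervated muscle. It was 2.63-fold higher there (1.40 ± 0.24; NM_008359, probe at chr6:120448481-120448540, mm8), and another probe gave 1.51. Il17re, the chain for IL-17C, gave 278 and 119. It was 3.16-fold lower in the denervated pool (-1.66 ± 0.21; NM_145826, probe at chr6:113435930-113435989, mm8). Il17rc, which pairs with Il17ra for IL-17A and IL-17F, gave 946 and 1919, a difference of 0.59 ± 0.20 (NM_134159, probe at chr6:113448848-113448907, mm8). Il17re and Il17rc lie side by side on chromosome 6 and had opposite signs. The other Il17rc probe of the same orientation gave 0.61, and a probe in the opposite orientation gave 1.35 from signals of 17.8 and 61.2. Il17rd, also called Sef, gave 274 and 279 (-0.40 ± 0.21, or -0.35 by its other measured probe). A further Il17rd probe was detected in control muscle only, at least 1.89-fold higher there. The ligand Il17d, a member made outside lymphocytes, gave 597 and 458 (-0.82 ± 0.20).

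In the remaining families no gene measured on both arrays passed 2-fold. In the IL-10 family the IL-10 receptor chain Il10ra gave 115 in control and 242 in denervated muscle (0.64 ± 0.21), while the shared chain Il10rb gave 1433 and 1968 (0.03 ± 0.20). Il20rb, a chain for IL-19, IL-20 and IL-24, gave 525 and 1154 (0.70 ± 0.20), but its other probe gave 0.01. Il22ra1, the IL-22 receptor chain, gave 56.2 and 51.3 (-0.56 ± 0.27), and Il24, a ligand of the IL-20 receptors, gave 24.2 and 25.4 (-0.36 ± 0.35). In the IL-12 family the p35 subunit Il12a gave 936 and 652, a difference of -0.95 ± 0.20 that lies just inside 2-fold. Its partner for IL-12, Il12b, was detected on neither array. Il27, a subunit of IL-27, gave 186 and 183 (-0.45 ± 0.21). Il3ra, the IL-3 chain of the common beta family, gave 734 and 864 (-0.20 ± 0.20), and the chemoattractant Il16 gave 338 and 369 (-0.31 ± 0.21, and -0.76 by another probe).

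For 12 members more than 1 probe was measured, and in all 12 the probes gave the same sign. Il15, Il6ra, Il13ra1, Il20rb and Il17rc were those whose probes differed most in size. Il15 and Il6ra had 1 probe past 2-fold lower and another that was not, and in Il17rc only the probe of opposite orientation passed 2-fold. The higher calls with more than 1 measured probe, Il17ra and Il18bp, were past 2-fold by both. Il11, Il33, Il17re and Il4i1 rest on 1 measured probe each.

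**Figure D3:**
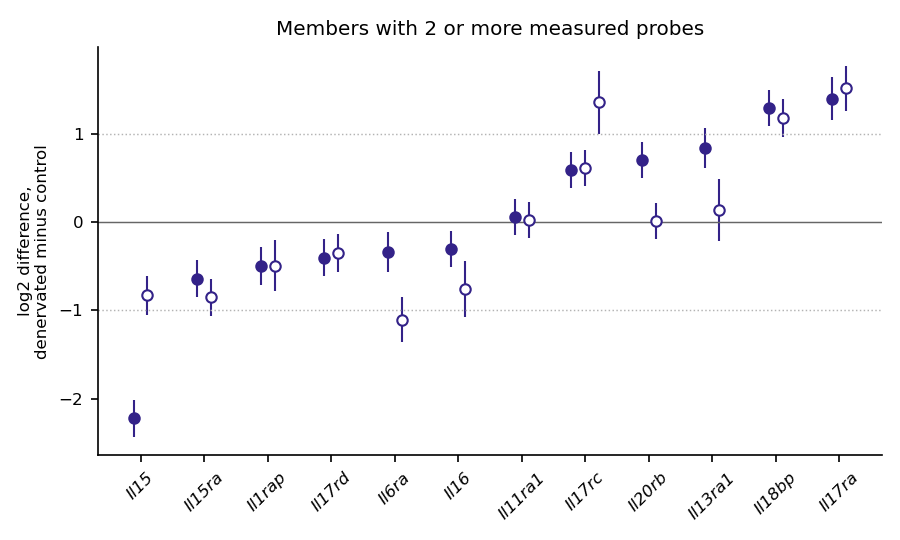
Log2 difference, denervated minus control, of each measured probe of the 12 members with more than 1, with technical error bars; the filled circle is the brightest probe, which gives the gene its value, and dotted lines mark 2-fold. Probes of a gene lie on the same side of 0, and the Il15 pair lies apart, at -2.22 and -0.83.

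Probes of 7 interleukins were printed about 10 times on each array, which shows the scatter between spots of an array directly. The Il6 spots had a lowest, median and highest signal of 38.1, 46.4 and 49.9 in control and 69.4, 81.5 and 90.2 in denervated muscle. The pools did not overlap, and over 9 spot pairs the difference was 0.38 ± 0.09 (SD). The Il18 spots gave 154, 163 and 176 in control and 135, 148 and 161 in denervated muscle, which overlap before scaling and not after it, with a difference of -0.59 ± 0.06 (SD, 9 pairs). Il1b, the classic inflammasome product, stayed below background in both pools. Its spots gave 3.43, 4.40 and 10.7 in control and 9.80, 16.8 and 30.3 in denervated muscle. These ranges overlap only through the highest control spot, and over 9 spot pairs the difference was 1.39 ± 0.82 (SD). The spots of Il10 also overlapped (11.5, 16.6 and 22.8 against 5.94, 11.8 and 19.6). Spots of Il4, Il12b and a dim Il2 probe overlapped as well. These spots repeat the reading within 1 hybridisation per pool. They repeat neither the labelling and hybridisation nor the animals.

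**Figure D4:**
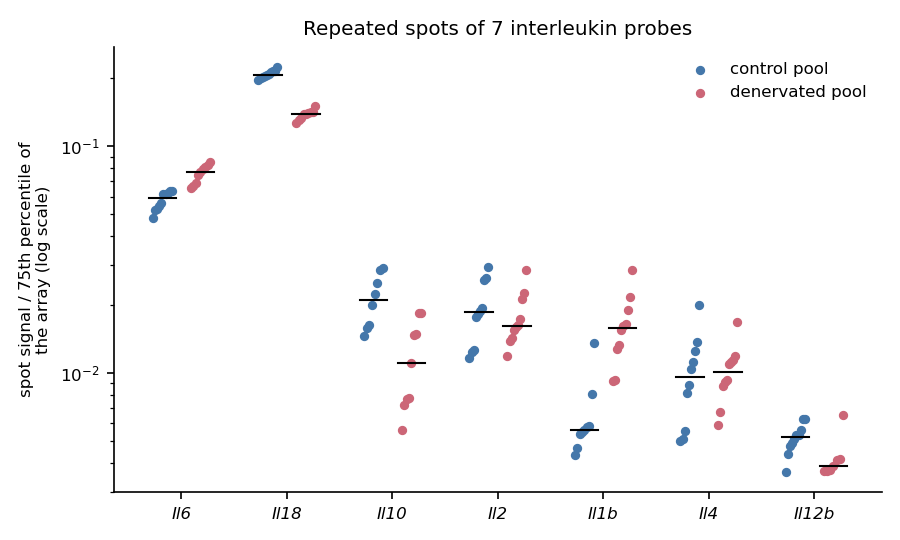
Signal of each repeated spot of 7 interleukin probes, divided by the array's 75th percentile (log axis), in the control pool (blue) and the denervated pool (red); black lines are medians of the spots. On this scaled axis the Il6 and Il18 spots of the pools do not overlap, though the Il18 spots do before scaling. Those of the other 5 probes, none well above background on both arrays, overlap.

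The signalling genes behind these receptors were read from lists of their own. The counts of each list here and below stand beside 6.92% of all genes at least 2-fold higher and 8.59% lower. Of 11 Janus kinases and STATs 10 were measured, 2 were at least 2-fold higher and none lower (median -0.10, or 0.30 on the spike-in scale). Stat5a, a target of common gamma and common beta chains, gave 1480 in control and 5744 in denervated muscle (1.52 ± 0.20). Stat3, the main effector of gp130, gave 4641 and 14900 (1.25 ± 0.20, and 0.42 by its other probe). Jak2, the kinase of common beta chain receptors, gave -0.96 ± 0.20. Of 15 feedback inhibitors all were measured, 1 was at least 2-fold higher and 1 lower (median -0.36, or 0.03 on the spike-in scale). Socs3, the inhibitor that gp130 signalling induces, gave 590 and 3184 (2.0 ± 0.20), whereas Cish, a STAT5 target and inhibitor, gave 1762 and 967 (-1.30 ± 0.20). Pias4, an inhibitor of STAT proteins, gave 0.74.

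All 14 adaptors and kinases of the IL-1 and IL-17 receptors were measured, 2 were at least 2-fold higher and none lower (median 0.10). Irak2 gave 545 in control and 1997 in denervated muscle (1.44 ± 0.20), and Myd88, the adaptor of IL-1 and Toll-like receptors, gave 427 and 1347 (1.22 ± 0.20). Tab2, an adaptor of the kinase Map3k7, gave -0.80. Of 10 genes that process IL-1 family cytokines 6 were measured and 1 was at least 2-fold higher: the inflammatory caspase Casp4, at 791 and 4192 (1.97 ± 0.20). The protease Ctsg gave -0.94 and the inflammasome sensor Nlrp3 -0.58, while Nlrp1a was detected in denervated muscle only, at least 4.08-fold higher. Casp1, which cleaves pro-IL-1 beta and pro-IL-18, gave 0.37 and was named after its value was seen.

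Relatives of the gp130 and common beta families that do not carry an Il name were mostly on the higher side. Of 20 listed genes 15 were measured, 11 were above 0, 2 were at least 2-fold higher and none lower. Of all genes, 42.7% were above 0 and 6.92% at least 2-fold higher. The median of the list was 0.26, or 0.07 with normexp. Ebi3, the subunit that pairs with Il27, gave 65.3 in control and 201 in denervated muscle (1.19 ± 0.22). Clcf1, a ligand of the ciliary neurotrophic factor receptor, gave 20.6 and 59.6 (1.10 ± 0.31), and the leptin receptor Lepr gave 0.92. Its partner Il27 stood at -0.45, and at -0.055 on the spike-in scale, which is within its technical error.

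Known response genes were read from 2 further lists. Both were chosen with earlier results of these data known, so their counts are not an independent test. Of 17 genes that IL-6 and STAT3 are known to induce, 13 were measured and 10 were at least 2-fold higher, where 6.92% of all genes were. The median was 2.11. Hp (0.52), Cebpd (-0.12) and Fos (-0.67) were measured and did not pass 2-fold. The acute-phase genes Orm2 (44.8 in control and 6393 in denervated muscle, 6.72 ± 0.24), Orm1 (42.6 and 1482, 4.69 ± 0.23) and Serpina3n (41.5 and 939, 4.07 ± 0.24) had the largest differences. Orm1 and Orm2 are close copies whose probes may share signal, and the fibrinogen genes Fga, Fgb and Fgg were detected on neither array. Saa3, an acute-phase apolipoprotein, was detected in denervated muscle only, at least 5.52-fold higher. Socs3 stands in this list and in that of the inhibitors. Of 12 genes that IL-4 and IL-13 are known to induce in macrophages, 8 were measured, 3 were at least 2-fold higher and 1 lower (median 0.11). Chil1 gave 3.65, the mannose receptor Mrc1 1.57 and Clec10a 1.17, and the chemokine Ccl17 gave -1.03. Mgl2 gave 0.42. Also below 0 were Retnla (-0.53), Ccl24 (-0.30) and Chil3 (-0.20). Retnla was the brightest measured gene of the list, at 7186 in control and 6705 in denervated muscle. Arg1, Alox15, Ccl22 and Cd209a were detected on neither array. Mrc1 is also one of the macrophage markers, and the part of macrophage number in these responses was not tested.

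**Figure D5:**
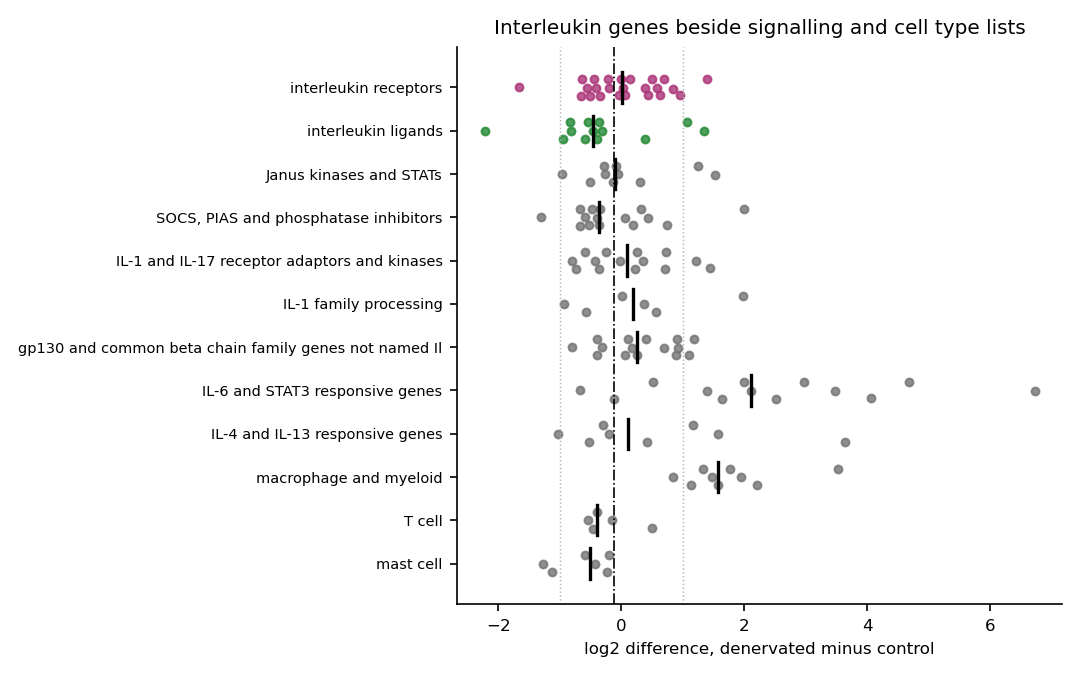
Log2 difference, denervated minus control, of each measured gene (points) and the median (black bar) of the interleukin receptors and ligands, 7 signalling lists and 3 cell type lists; the dash-dotted line is the median of all measured genes (-0.11) and dotted lines mark 2-fold. The medians of the IL-6 and STAT3 responsive list (2.11) and of the macrophage list (1.57) lie furthest right. Left of 0 lie those of the mast cell list (-0.51), ligands (-0.45), T cell list (-0.39), inhibitors (-0.36) and Janus kinases and STATs (-0.10).

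Markers of the other cells that make or answer interleukins had these values. Of the 8 neutrophil markers 2 were measured: S100a9 gave 133 in control and 462 in denervated muscle (1.37 ± 0.21), and Mpo gave -0.20. S100a8 was detected in denervated muscle only, at 18.4 and 7488. Set against its own dim control signal it was 301-fold higher, an estimate and not a lower limit. Camp, Csf3r, Elane and Ngp were detected on neither array. The summed scaled signal of S100a9 and Mpo was 0.217 in control and 0.476 in denervated muscle, without S100a8. Of 5 natural killer markers 2 were measured and neither passed 2-fold, and Ncr1 and Prf1 were detected on neither array. Gzmb was detected in denervated muscle only, at 16.3 and 88.9, an estimated 4.03-fold higher than its own dim control signal. Those measured were Klrb1c (-0.71) and Nkg7 (-0.14). All 4 fibroblast genes were above 0, with the matrix genes Lum at 1.03, Dcn at 0.15 and Col1a1 at 0.08 and the receptor Pdgfra at 0.22. All 4 endothelial genes were below 0, with the receptor Kdr at -1.12, Cdh5 at -0.56 and Pecam1 at -0.43, and Tek, at -0.34, turns positive on the spike-in scale. The B cell marker Cd79b gave -0.39. Satellite cell markers gave 0.89 (Cdh15) and -0.80 (Pax7). The part of these cells in the interleukin values was not tested.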

How the data were processed

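Gene expression was measured on 2 arrays of 1 slide, 1 pool of 6 mice each, grouped by their source label; slide position and group cannot be told apart. The authors extracted each spot's intensity with Agilent Feature Extraction 9.5, a version given in the submitters' processing notes and as 9.5.3.1 in the file headers. Per the file headers, this subtracted the background within each array and used a preset multiplicative error of 10%. Probe coordinates are on mm8, per the file headers. Each array received cRNA labelled with Cy3 (1.65 µg, per the labels). The authors also deposited a table of whole numbers, used as a score in 1 alternative. It equals the processed signal scaled so that each array's 75th percentile is 100, with column medians of 10 (control) and 9 (denervated).

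Spots marked as non-uniform or outliers were left out (87 and 81), spots of a probe were averaged as log2, and the array's 75th percentile over non-control probes was subtracted. Probes above background made up 70.9% and 68.4%. The lowest signals counted as above background, 14.5 (control) and 17.9 (denervated), set the bounds. A dim signal above these was used as it stood, which gives an estimate and not a bound. A RefSeq table of GRCm38.p6 named 23374 probes, and 4 members carry other RefSeq symbols. Of the measured members, 35 were read through a RefSeq transcript and 4 through another accession. No column of other samples was present.

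Members and gene lists were chosen with earlier results of these data known. By a rule, every member above background is named, and of each list the 3 largest differences and, for cell types, the 2 brightest genes. Listed genes detected on 1 array, and some of those detected on neither, were added after their values were seen. So were Casp1, Ccl17, Mgl2, Retnla, Ccl24, Chil3, Hp, Cebpd and Fos. Some genes that the rule names are left out of the text. The alternatives were scaling (median, quantile, loess, spike-in, none), background (normexp, offset 50, limma 3.58.1 under R 4.3.3), the deposited table, the filter on dim probes (removed, or raised to 4 times the lowest signal above background on 1 array), marked spots kept, the probe of a gene, and RefSeq symbols for membership. Scripts ran in Python 3.11.15 with pandas 2.3.3, numpy 2.4.6, statsmodels 0.14.6 and matplotlib 3.10.9, and were tested on simulated data. The aligner of probes to the genome is not given in the sources used here.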

Additional observations from a re-analysis of the deposited data

How the results depend on the processing

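No paired analysis was possible because each group has 1 array. Against 4 members at least 2-fold higher, 8 were with spike-in scaling, 9 without scaling, 9 with dim probes kept and 0 with normexp, where Il11 gave 0.45, Il17ra 0.41, Il18bp 0.94 and Il33 0.97. Against 3 lower, 6 were with dim probes kept. The ligand median became -0.055 with spike-in scaling and -0.021 without scaling, and the receptor median 0.41, 0.44 and, with normexp, -0.21. The distance between them was 0.15 with dim probes kept and 0.29 with normexp. Spike-in scaling turned the sign of 8 members. Il17re and Il4i1 passed 2-fold lower under all 13 alternatives, and Il15 under all but the smallest-difference probe (-0.83). Il4ra (1.36), Il13ra1 (1.24), Il20rb (1.10) and Il10ra (1.04) passed 2-fold higher with spike-in scaling. Pooling leaves the spread between mice unknown, and signal near background left 40 members without a value in either pool.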

Other observations

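Under RefSeq symbols 1 further gene joins the members: Il34, a ligand of the receptor Csf1r on macrophages, which the array lists under a clone name. It gave -0.12 ± 0.20, so it stayed within its technical error. When dim probes were kept, 5 more genes were past 2-fold higher: Il1f9 (3.24), Il12rb1 (1.58), Il1b (1.31), Il1rapl1 (1.26) and Il17f (1.02). Past 2-fold lower were then also Il1rapl2 (-1.25), Il18r1 (-1.15) and Il2ra (-1.10). These values rest on signals not well above background on at least 1 array.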
